A study of Mus musculus with 9 samples.

Results

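The hepatic insulin signalling cascade was examined through 10 named genes, from the insulin receptor to the effectors of the kinase Akt, in liver RNA-seq data of male mice conceived in different ways. The 10 genes were taken by symbol from a fixed list (Insr, Irs1, Irs2, Akt1, Akt2, Foxo1, Pik3ca, Pik3r1, Gsk3b and Trib3), whose rule uses no measured value but which was drawn up with earlier results of these data known, and all 10 were found among the 55335 genes of the table. The study asked how in vitro fertilization and embryo freezing bear on the metabolism of the offspring, and livers of 9 B6D2F2 males aged 20 weeks and fasted for 4 h were sequenced, 3 in each of 3 groups. The natural conception group (NC, mice 1, 5 and 6) came from natural pregnancies. The IVF group (mice 2, 3 and 4) came from oocytes of super-ovulated B6D2F1/J females fertilized in vitro with B6D2F1/J sperm and transferred fresh, at the 2-cell stage, to pseudopregnant ICR females. The FET group (mice 2, 3 and 4) came from embryos made in the same way, slowly frozen, thawed and then transferred. All 9 mice ate chow and carried no engineered allele. Hormone treatment, culture and the ICR recipient are shared by IVF and FET and absent from NC, so that their parts in a difference from NC cannot be told apart. The litters are not given in the labels, and p-values measure the spread between these mice.

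Insulin binds its receptor on hepatocytes, and the activated receptor kinase phosphorylates the docking proteins Irs1 and Irs2. These recruit phosphatidylinositol 3-kinase, whose catalytic subunit p110 alpha is encoded by Pik3ca and whose regulatory subunit p85 alpha by Pik3r1. The lipid that this kinase makes brings Akt to the membrane. Akt then phosphorylates the glycogen synthase kinase Gsk3b, which relieves glycogen synthase of its brake, and the transcription factor Foxo1, which leaves the nucleus and stops driving gluconeogenic genes. Trib3 is a pseudokinase that binds Akt and restrains it. Most of this regulation acts on phosphorylation and protein location, which RNA does not show, but the transcripts of Irs2 and of Foxo1 targets such as Igfbp1 are known to be high in the fasted liver and to be repressed by insulin.

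The promoter sequences of the docking proteins and of Igfbp1 are shown because these genes were listed at 0, or at about 1 fragment, in FET mice 2 and 4, the mice with the most tested genes at 0. In FET mouse 3 they parted, with Irs1 and Irs2 at 1.51 and 1.55 FPKM and Igfbp1 at 0. RefSeq promoter windows (build GRCm38.p6, 250 bases before to 50 after a start site) were found for 9 of the 10 genes, in 14 windows. The core of the insulin response element through which FOXO proteins act, CAAAACAA or its reverse complement TTGTTTTG, was searched on both strands and occurs in 2.51% of all 32851 windows of this length. It was found in the windows of Irs1, Irs2 and Igfbp1 and is in capitals in the lines that follow, read in the direction of transcription. No match was found for the other genes searched. Among these were Trib3, listed at 0 in every FET mouse, and the Foxo1 targets G6pc and Pck1. In the Irs2 line the capitals also take in an E-box, CACGTG, which adjoins the element and occurs in 7.15% of windows. The Trib3 line is 30 bases long and its capitals mark a match to TGATGNAA (reverse complement TTNCATCA), the composite site of C/EBP and ATF factors, which occurs in 3.97% of windows.
Irs1 (chr1:82291440-82291498, minus strand): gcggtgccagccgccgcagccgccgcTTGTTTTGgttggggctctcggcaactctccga
Irs2 (chr8:11008934-11008993, minus strand): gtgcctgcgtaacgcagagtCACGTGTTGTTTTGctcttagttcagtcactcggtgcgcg
Igfbp1 (chr11:7197653-7197712, plus strand): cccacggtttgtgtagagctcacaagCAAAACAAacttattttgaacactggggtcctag
Trib3 (chr2:152344028-152344057, minus strand): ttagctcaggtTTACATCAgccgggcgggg

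Counted from the RefSeq start site to its upstream end, the element lies at position -33 in Irs1, -38 in Irs2 and -108 in Igfbp1. The composite site of Trib3 lies at position 15, after the RefSeq start. This site was also found in the windows of Akt2 (-85) and of the Foxo1 target G6pc (-138), and an E-box in that of Irs1 (-115). In the gene annotation matched to the FPKM values, Irs2 starts at chr8:11008458 and Trib3 at chr2:152344032. The element of Irs2 and the composite site of Trib3 both lie upstream of these starts. A match is a description of these letters and not of a bound factor.

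The values are FPKM, that is fragments relative to the length of the transcript and to the size of the library, so they may be compared between genes as levels per length. The libraries were shallow and unequal. The number of mapped fragments, estimated from the steps that whole fragments leave in low FPKM values, was 2020000 to 2940000 in FET, 3900000 to 8270000 in IVF and 6610000 to 13370000 in NC. Nuclear protein-coding genes took from 4.36% of the summed FPKM in IVF mouse 2 to 29.3% in IVF mouse 4. Of the 6755 genes tested, 20.3% were at 0 in FET mouse 2 and 14.5% in FET mouse 4, against 2.28% to 5.43% in the other mice. The library names end in a number that the labels do not explain, which is 67 in NC mouse 1 and 71 to 76 in the IVF and FET mice and stands well above these in NC mice 5 and 6. All 8 hepatocyte markers were above 0 in each group, and the summed levels of Kupffer, endothelial, stellate, cholangiocyte and lymphocyte markers overlapped between the groups. In whole liver, fewer cells of a type and less RNA per cell cannot be told apart.

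The receptor gene Insr (ENSMUSG00000005534, chr8:3122061-3279617) had a higher mean in IVF and FET than in NC, but the groups overlapped and the NC mice were split. Its FPKM was 1.96, 0.204 and 0.25 in NC mice 1, 5 and 6, then 0.39, 2.51 and 5.18 in IVF mice 2, 3 and 4, and 2.17, 3.96 and 0.407 in FET mice 2, 3 and 4. NC mice 5 and 6 were the lowest of the 9 mice, and NC mouse 1 lay among the IVF and FET mice. The low values stood for about 23 and 31 fragments on the longest transcript in the deepest libraries of the series. Scaled to the sum of nuclear protein-coding genes, they were 0.169 and 0.183, against 1.03 to 3.52 in the other 7 mice. The mean was 0.803 ± 0.998 in NC, 2.69 ± 2.4 in IVF and 2.18 ± 1.78 in FET (SD, n = 3). The log2 fold change of FPKM + 1 was 0.77 ± 0.63 (SE) in FET against NC, with an adjusted p of 0.666 (limma, Benjamini-Hochberg over all genes tested). It was 0.92 ± 0.63 in IVF against NC (adjusted p = 1.0). With NC mouse 1 as the only control, whose library number is next to those of the other groups, the value in FET against NC was -0.07. In IVF against NC it was then 0.08. Leaving out each mouse gave 0.36 to 1.27 in FET against NC and 0.43 to 1.5 in IVF against NC.

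The docking protein genes were low in every group, and in FET they stood above the level of 3 fragments in 1 mouse. Irs1 (ENSMUSG00000055980, chr1:82233101-82291416) stood at 0.952, 1.13 and 1.18 FPKM in NC, at 0.416, 1.21 and 1.42 in IVF, and at 0, 1.51 and 0.038 in FET. FET mouse 3 was thus the highest of all 9 mice while FET mice 2 and 4 were the lowest. Irs2 (ENSMUSG00000038894, chr8:10984681-11008458), the docking protein that fasting induces, stood at 0.436, 1.98 and 0.675 in NC, 0.374, 0.99 and 0.122 in IVF, and 0, 1.55 and 0 in FET. The same FET mouse held nearly all the signal of both genes. The FPKM that 3 fragments would give, the limit that a count of 0 allows in a library, was 0.162 for Irs1 in FET mouse 2. In FET mouse 4 Irs1 was listed at 0.038, about 1 fragment. For Irs2 it was 0.235 and 0.161 in FET mice 2 and 4. Every NC value of Irs1 and Irs2 lay above these limits. FET mice 2 and 4 are also the mice with the most tested genes at 0, and the part of this in the result was not tested. Reads of an opposite-strand gene overlap each locus, Gm9747 at Irs1 (up to 1.43 FPKM, above 0 in 3 mice) and 9530052E02Rik at Irs2 (up to 0.57, above 0 in 4 mice), and whether the counting used strand is not given in the sources used here.

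**Figure D1:**
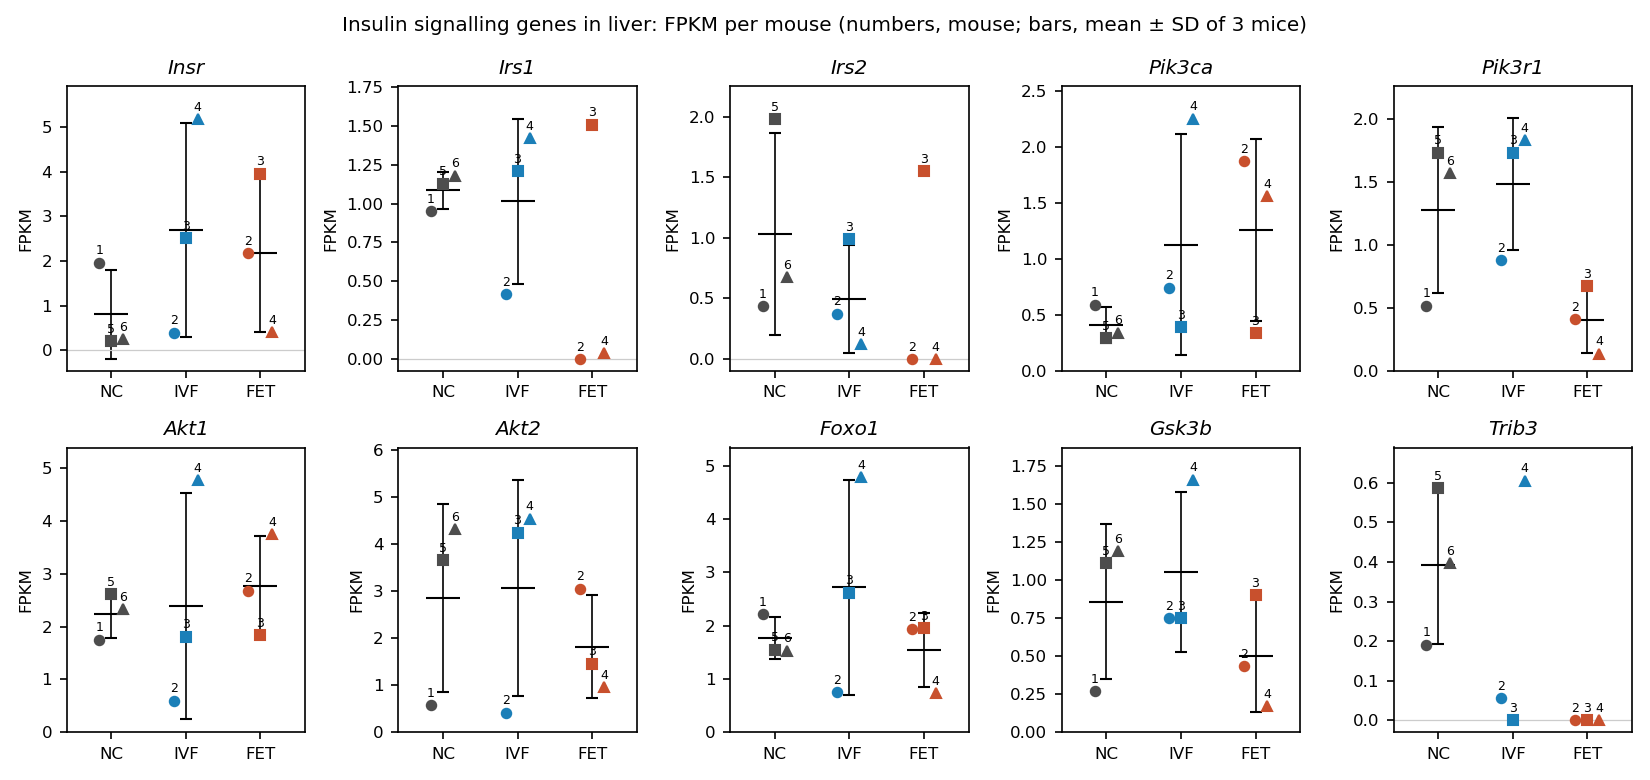
FPKM (y axis) of the 10 genes in each mouse, by group on the x axis, with the mouse number beside each point and the mean and SD of 3 mice in black, left out where a mouse is listed at 0. Insr is lowest in NC mice 5 and 6 (0.204 and 0.25), Irs1 and Irs2 are at or near 0 in FET mice 2 and 4, Pik3r1 in FET (0.138 to 0.673) lies below IVF (0.88 to 1.83), and Trib3 is listed at 0 in all 3 FET mice.

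Of the 5 tested genes of the cascade, the regulatory subunit gene of phosphatidylinositol 3-kinase was the only one whose groups did not overlap in a comparison. Pik3r1 (ENSMUSG00000041417, chr13:101680563-101768217) was at 0.518, 1.73 and 1.57 FPKM in NC mice, 0.88, 1.73 and 1.83 in IVF mice, and 0.409, 0.673 and 0.138 in FET mice. No FET mouse reached the lowest IVF mouse, and FET overlapped NC only through NC mouse 1. The mean was 1.27 ± 0.656 in NC, 1.48 ± 0.522 in IVF and 0.407 ± 0.268 in FET. The log2 fold change was -0.81 ± 0.57 (SE) in FET against IVF, with an unadjusted p of 0.162 and an adjusted p of 1.0 by limma, and -0.66 ± 0.57 in FET against NC (adjusted p = 0.687). Of all genes tested, 2.56% were likewise lower in every FET mouse than in every IVF mouse. The FET values rest on few reads, about 5.9, 13 and 2.9 fragments on the longest transcript, against 24 to 149 in the other mice.

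Pik3r1 in FET also lay apart from NC once each library was scaled to its nuclear protein-coding sum. The scaled values were 0.635, 1.43 and 1.15 in NC, 2.58, 1.82 and 0.912 in IVF, and 0.514, 0.598 and 0.348 in FET. Every FET mouse then lay below every NC and every IVF mouse, which held for 3.7% of the genes tested. By limma, the log2 fold change in FET against IVF became -0.85 with an unadjusted p of 0.0408 (adjusted p = 0.52). It was -0.87 with 0.0258 under median-ratio scaling (adjusted p = 0.467). Quantile normalization gave -0.78 with 0.0515 (adjusted p = 0.552). Of the 6755 genes tested, 636, 640 and 611 had an unadjusted p under 0.05 on these 3 scales, against 271 as deposited. The difference thus did not pass the test over all genes on any of these scales.

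**Figure D2:**
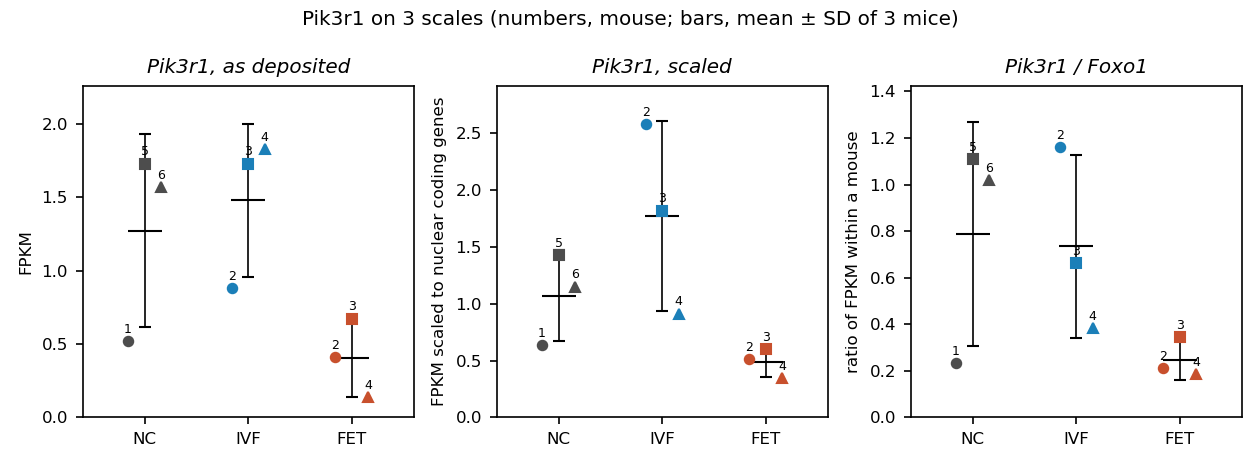
Pik3r1 in each mouse as deposited (FPKM), after scaling to nuclear protein-coding genes, and divided by the Foxo1 FPKM of the same mouse (y axes), by group on the x axis, with mouse numbers, and the mean and SD of 3 mice in black. FET lies at 0.138 to 0.673 FPKM as deposited, at 0.348 to 0.598 when scaled, below all other mice, and at a ratio of 0.186 to 0.345, below the lowest IVF ratio of 0.383.

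The catalytic subunit gene Pik3ca (ENSMUSG00000027665, chr3:32397671-32468486) had another pattern. It was at 0.59, 0.29 and 0.34 FPKM in NC, 0.742, 0.389 and 2.25 in IVF, and 1.87, 0.335 and 1.56 in FET. FET mice 2 and 4 lay above every NC mouse, and FET mouse 3 lay among them. The ratio of Pik3ca to Pik3r1 was 1.14, 0.168 and 0.217 in NC, 0.842, 0.225 and 1.23 in IVF, and 4.56, 0.498 and 11.4 in FET. The ratio of FET mouse 3 lay within the NC range, so the groups overlap. The mean of Pik3ca over all mice was under 1 FPKM, and it was not tested. The study also assayed Pik3ca by qPCR, and its primers, printed here for the transcript region they read, both lie within 1 coding exon and give a product of 171 bases on 2 of the 4 annotated transcripts, matching no other gene.
Pik3ca forward primer (chr3:32436327-32436348): cactcgtcaccatcaaacatga
Pik3ca reverse primer (chr3:32436477-32436497): agggttgaaaaagccgaaggt

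Akt2 had the highest mean of the 10 genes in NC and IVF and Akt1 in FET, and the groups overlapped for both in all comparisons. Akt1 (ENSMUSG00000001729, chr12:112653821-112674884) stood at 1.75, 2.61 and 2.33 FPKM in NC, 0.602, 1.81 and 4.76 in IVF, and 2.68, 1.84 and 3.75 in FET. Akt2 (ENSMUSG00000004056, chr7:27591552-27640826), the isoform that serves most of insulin's metabolic action, stood at 0.577, 3.66 and 4.33 in NC, 0.418, 4.25 and 4.55 in IVF, and 3.06, 1.46 and 0.958 in FET. For Akt2, NC mouse 1 and IVF mouse 2 lay far under their group mates, and the FET mice lay in between. The log2 fold change of Akt1 was 0.2 ± 0.62 (SE) in FET against NC and -0.12 ± 0.62 in IVF against NC. For Akt2 it was -0.33 ± 0.65 and 0.03 ± 0.65. The sign of several of these small values turned under other scalings or without 1 mouse. The ratio of Akt1 to Akt2 was 3.03, 0.714 and 0.538 in NC, 1.44, 0.426 and 1.05 in IVF, and 0.876, 1.26 and 3.91 in FET, so that each group held mice on either side of 1.

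Foxo1 (ENSMUSG00000044167, chr3:52268336-52353221) lay in a narrow range in NC and overlapped between all groups. Its FPKM was 2.22, 1.55 and 1.53 in NC, 0.759, 2.62 and 4.78 in IVF, and 1.93, 1.95 and 0.74 in FET. The order of the IVF mice was that of the share of protein-coding RNA in their libraries. After scaling to that share, the IVF values were 2.23, 2.75 and 2.38, and their SD went from 2.01 to 0.269. In NC the same scaling widened the range to between 1.12 and 2.72, and the SD went from 0.394 to 0.879. Akt1 in IVF behaved like Foxo1 in IVF, and its SD went from 2.14 to 0.319, but in FET the SD of Akt1 went from 0.958 to 4.13 with FET mouse 4 at 9.49. The log2 fold change of Foxo1 was -0.16 ± 0.6 (SE) in FET against NC, and its sign depended on the scaling (0.19 with scaling to nuclear protein-coding genes). Gsk3b (ENSMUSG00000022812, chr16:38089001-38246084) stood at 0.272, 1.11 and 1.19 FPKM in NC, 0.752, 0.751 and 1.66 in IVF, and 0.437, 0.902 and 0.173 in FET, with overlap throughout. Its paralog Gsk3a was the more abundant in every mouse, and the ratio of Gsk3b to Gsk3a was 0.0802 to 0.122 in NC, 0.147 to 0.394 in IVF and 0.0631 to 0.205 in FET. IVF thus lay above NC without overlap in this ratio, as did 9.22% of the genes tested when divided by Gsk3a.

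Trib3 (ENSMUSG00000032715, chr2:152337422-152344032) had the lowest mean of the 10 genes in every group, though in NC mice 5 and 6 it stood above Insr and Pik3ca. Its FPKM was 0.191, 0.586 and 0.396 in NC and 0.0565, 0 and 0.605 in IVF, and it was listed at 0 in all 3 FET mice. NC and FET therefore did not overlap, as was so for 16.1% of the genes with a mean FPKM between 0.1 and 1. The FPKM of 3 fragments was 0.733, 0.527 and 0.504 in FET mice 2, 3 and 4, which is above all 3 NC values in FET mouse 2 and above 2 of them in FET mice 3 and 4. The mean NC level would have given about 1.6, 2.23 and 2.33 fragments in these libraries, or 6.15 over all 3 of them. In the NC mice the values stood for about 2.6, 14 and 11 fragments.

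**Figure D3:**
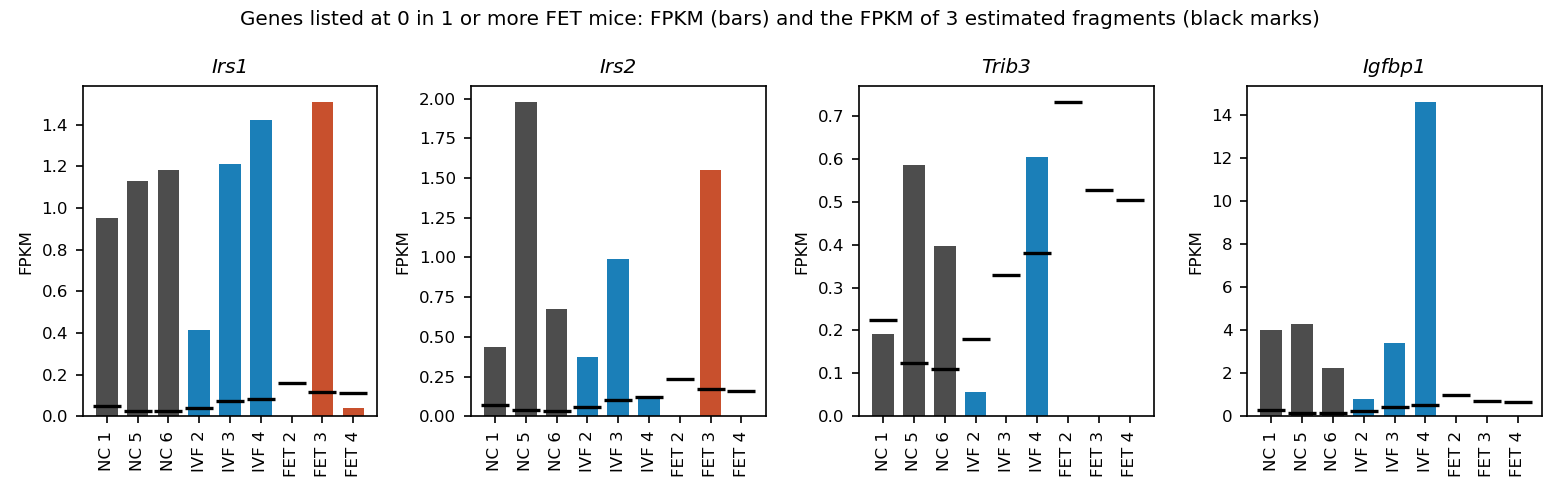
FPKM (bars, y axis) of Irs1, Irs2, Trib3 and the Foxo1 target Igfbp1 in each mouse (x axis, grey NC, blue IVF, red FET), with the FPKM that 3 estimated fragments would give in that library as a black mark. For Trib3 the marks of the FET mice (0.504 to 0.733) lie above the bars of NC mice 1 and 6, whereas for Igfbp1 they (0.669 to 0.974) lie below every NC bar (2.26 to 4.29).

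Across the cascade, no gene was called in any comparison. Of the 10 genes, 5 had a mean of at least 1 FPKM over the 9 mice and were tested (Insr, Akt1, Akt2, Foxo1 and Pik3r1), and 0 of these 5 passed an adjusted p of 0.05 in FET against NC, where 0.237% of all tested genes did. In IVF against NC it was 0 of 5 against 0.0592%, and in FET against IVF 0 of 5 against 0.0888%. At an unadjusted p under 0.05 there were also 0 of 5 in each comparison, where 12.0%, 4.07% and 4.01% of all genes tested passed. The smallest adjusted p under the alternatives in which they could be tested was 0.367. Irs1, Irs2, Pik3ca, Gsk3b and Trib3 were too low for this filter, and in a fit of all 27411 genes with a value in some mouse the smallest adjusted p among them was 0.527, for Trib3 in FET against NC. The 95% intervals were wide. For Insr in FET against NC the interval ran from -0.5 to 2.04 on the log2 scale, and for Pik3r1 from -1.81 to 0.49. The median over all genes tested was itself below 0, at -0.46 in FET against NC, -0.25 in IVF against NC and -0.2 in FET against IVF. FET and IVF were each compared with the same NC mice.

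**Figure D4:**
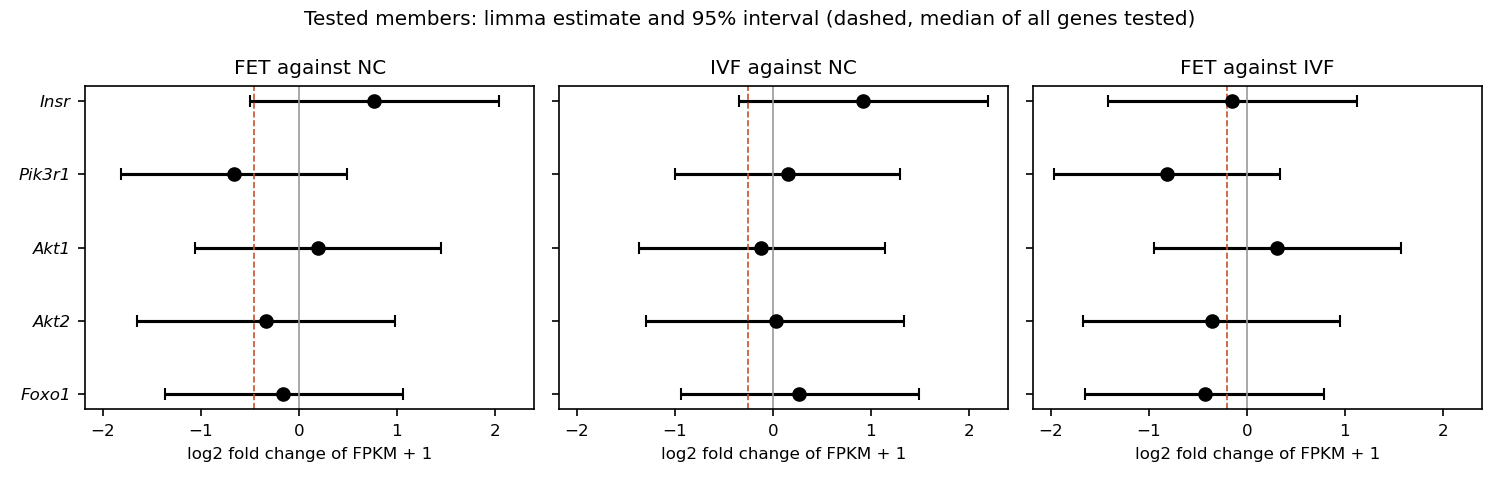
Log2 fold change of FPKM + 1 (x axis) with its 95% interval for the 5 tested genes (y axis) in the 3 comparisons, with 0 as a grey line and the median of all genes tested as a dashed line. All 15 intervals include 0, and in FET against NC Insr lies at 0.77 and Pik3r1 at -0.66, on either side of the median of all genes (-0.46).

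The order of the mean levels differed between the groups but was not resolved. In NC it ran from Akt2 (2.86) and Akt1 (2.23) through Foxo1 (1.77), Pik3r1 (1.27), Irs1 (1.09), Irs2 (1.03), Gsk3b (0.854) and Insr (0.803) to Pik3ca (0.407) and Trib3 (0.391). In IVF it opened with Akt2 (3.07), Foxo1 (2.72) and Insr (2.69), and in FET with Akt1 (2.76), Insr (2.18) and Akt2 (1.83). Neighbours in these orders overlapped over the mice in every group, except Pik3r1 and Trib3 at the end of the FET order. Pik3r1 moved from the 4th place in NC and the 5th in IVF to the 9th in FET, and Pik3ca from the 9th in NC to the 5th in FET. Within a mouse, where the library's scale cancels, 7 ratios were formed, 6 between the 10 genes and that of Gsk3b to its paralog Gsk3a, with Irs2 to Irs1 left out in FET mouse 2, where Irs1 was at 0. In these ratios 2 of the comparisons showed no overlap, that of Gsk3b to Gsk3a in IVF against NC and that of Pik3r1 to Foxo1 in FET against IVF. The latter stood at 0.212, 0.345 and 0.186 in FET, where IVF mice 3 and 4 stood at 0.661 and 0.383 and IVF mouse 2 higher still, and 3.08% of the genes tested were likewise lower in FET when divided by Foxo1. The NC ratios were 0.233, 1.11 and 1.02, with NC mouse 1 again among the FET mice.

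The genes whose pattern over the 9 mice was most like that of each tested gene were found by the root-mean-square difference of their log2(FPKM + 1) deviations from the gene mean. For Insr the nearest was Ahsg, which encodes the plasma glycoprotein fetuin-A, at 0.17, where the median over all genes was 0.97. Ahsg was at 88.5 and 87.3 FPKM in NC mice 5 and 6 and at 88.7 in IVF mouse 2, and at 221 in NC mouse 1, 317 and 453 in IVF mice 3 and 4 and 225 and 298 in FET mice 2 and 3. Its lowest mice were those in which Insr was lowest. For Pik3r1 the nearest was the ABC transporter gene Abca8b at 0.15 (median 0.68), with 0.475, 1.03 and 0.0466 FPKM in FET and 0.652 to 2.35 in the other mice. The nearest gene was Zfr for Foxo1 (0.14) and Mrpl37 for Akt1 (0.19), and the genes in the 2nd place were Gm29253 for Insr (0.3), Mob2 for Akt1 (0.2), Slc7a6os for Akt2 (0.22), Trim8 for Foxo1 (0.16) and Cebpz for Pik3r1 (0.19). These likenesses are descriptions over libraries that share depth and composition, and no test was made.

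The rest of the pathway was read from 5 lists of 81 further genes, of which 38 were tested. Of these 38, 0 were called in any comparison, and at an unadjusted p under 0.05 there were 8 lower and 0 higher in FET against NC, 3 lower and 0 higher in IVF against NC, and 5 lower and 1 higher in FET against IVF. Over all genes tested, the share lower at that threshold was 10.1%, 2.86% and 2.95% in these comparisons, and the share higher in FET against IVF was 1.07%. A negative fold change in FET against NC was found for 32 of these 38 and for 74.4% of all genes tested.

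Many transcripts on which the cascade acts had lower means in FET and in IVF than in NC, none of them past the test. Among the liver targets of FOXO1 and insulin, 10 of the 11 that were tested lay below 0 in FET against NC, with a median log2 fold change of -1.62 where that of all genes was -0.46, or -1.39 with Igfbp1 set to the level of 3 fragments in FET. In IVF against NC it was 9 of 11 with a median of -1.18, where 68.9% of all genes tested were negative and their median was -0.25. In FET against IVF it was 8 of 11 with -0.37, where all genes had 65.4% and -0.2. FET and IVF share their NC mice here. Igfbp1, a secreted binder of insulin-like growth factors that insulin represses through FOXO1, was at 3.99, 4.29 and 2.26 FPKM in NC and 0.807, 3.41 and 14.6 in IVF, and was listed at 0 in all 3 FET mice. The limits of 3 fragments there were 0.974, 0.7 and 0.669, below every NC value, but IVF mouse 2 lay below the limit of FET mouse 2. The adjusted p was 0.124 in FET against NC and 0.301 in FET against IVF. As listed, every FET mouse lay below every NC and every IVF mouse, as was so for 17.1% and 2.56% of the genes tested in these comparisons. Klf15, a fasting-induced transcription factor of amino acid catabolism and gluconeogenesis, was at 9.55, 26.2 and 26.6 in NC, 2.2, 9.69 and 18.5 in IVF and 0.961, 0.591 and 2.86 in FET. Its log2 fold change in FET against NC was -3.12 ± 0.8 (SE), with an adjusted p of 0.0619, and no FET mouse reached the lowest NC mouse, as was so for 17.1% of the genes tested. Pck1, the phosphoenolpyruvate carboxykinase of gluconeogenesis, was at 95.2, 174 and 180 in NC, 39.9, 76.9 and 84.6 in IVF and 1.45, 78.3 and 51.7 in FET, so that every IVF and FET mouse lay below every NC mouse, where 17.1% of the genes tested did so in FET and 5.46% in IVF. Its log2 fold change in FET against NC was -2.74 ± 1.13, with an adjusted p of 0.325. Among the alternatives tried, Igfbp1 passed the test with a pseudocount of 0.1 and Klf15 without NC mouse 1. That pseudocount lies below the limits of 3 fragments of Igfbp1 in FET, and it sets the fold change of a gene listed at 0 there.

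**Figure D5:**
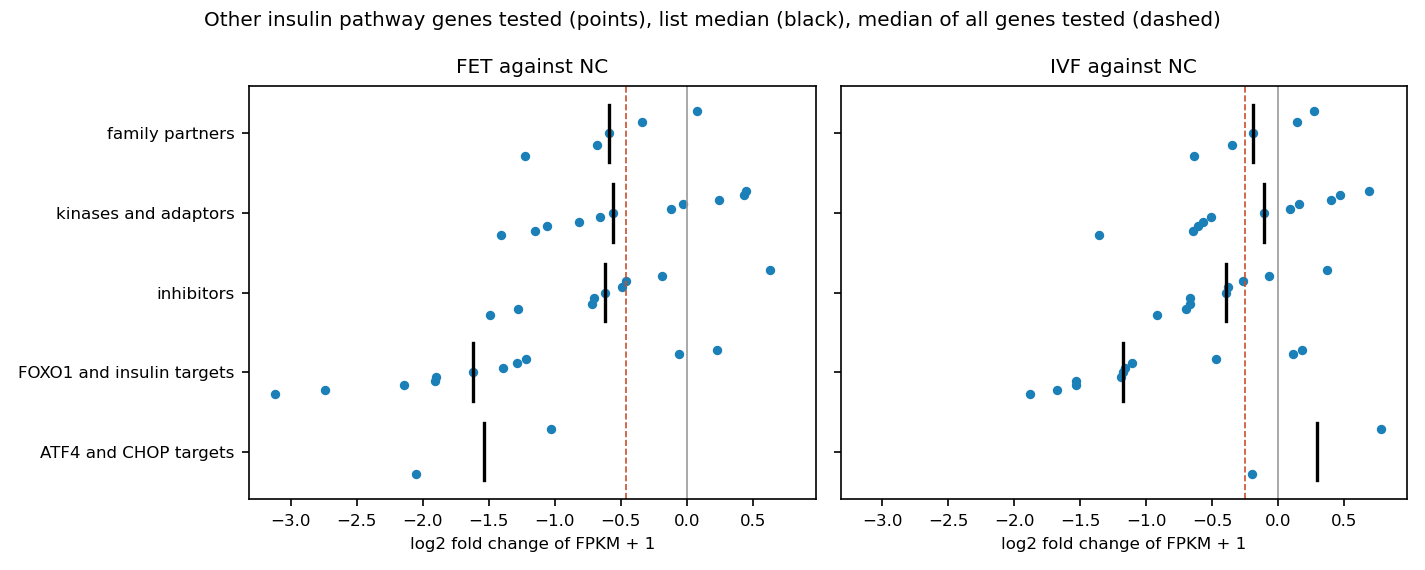
Log2 fold change of FPKM + 1 (x axis) of the tested genes of 5 insulin pathway lists (y axis, 1 point per gene), with the list median in black, 0 as a grey line and the median of all genes tested as a dashed line, for FET against NC and IVF against NC. In FET against NC the FOXO1 and insulin targets have a median of -1.62 and the kinases and adaptors -0.56, where all genes have -0.46, and in IVF against NC the same targets have -1.18, where all genes have -0.25.

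The inhibitors of the cascade had a median of -0.62 in FET against NC, with 8 of 9 tested genes negative. For this and the lists below, 74.4% of all genes tested were negative in that comparison, with a median of -0.46. Socs3, which binds the receptor and its docking proteins, stood at 3.66, 3.23 and 2.92 FPKM in NC, 1.13, 0.468 and 2.62 in IVF and 0.349, 0.492 and 0.718 in FET. Its NC values lay above all others, as was so for 17.1% of the genes tested against FET and 5.46% against IVF, with a log2 fold change of -1.49 ± 0.58 (SE) in FET against NC and an adjusted p of 0.286. Ppp2r5b, a regulatory subunit of protein phosphatase 2A, gave -1.28 ± 0.59 (adjusted p = 0.379) and Grb14, a receptor-binding adaptor, -0.72 ± 0.67 (adjusted p = 0.71). Kinases and adaptors had a median of -0.56, with 8 of 11 negative, and Sh2b1 (-1.41), Sgk2 (-1.15) and Eif4ebp1 (-1.06) at the lower end. Among family partners of the 10 genes, 4 of 5 were negative, with Trib1 at -1.23, Gsk3a at -0.68 and Foxo3 at -0.59. Of the regulators and co-targets of Trib3 only Atf4 and Ddit3 were tested. Atf4, the stress-induced activator of Trib3, was at 13.9, 26.1 and 26.7 FPKM in NC, 4.8, 20 and 60.1 in IVF and 5.54, 1.53 and 8.57 in FET, with a log2 fold change of -2.05 ± 0.92 in FET against NC (adjusted p = 0.358). Ddit3, which encodes CHOP, gave -1.03 ± 0.71 (adjusted p = 0.584). The lower values of these lists in FET went together with the low depth of the FET libraries and with the negative median of all genes, and the part of either was not tested. They also depended on single mice. The median of the 38 other pathway genes tested was -0.71 in FET against NC. With NC mouse 1 as the only control it was -0.1, where that of all genes was -0.15. It was -1.09 without NC mouse 1 (all genes -0.62), -1.2 without FET mouse 3 (all genes -0.66) and -0.5 without FET mouse 4 (all genes -0.22). Under the 3 scalings it lay between -0.47 and -0.42, where all genes had -0.15 to -0.06. In IVF against NC this median was -0.43, then 0.17 with NC mouse 1 as the only control (all genes 0.04). It was -0.01 without IVF mouse 2 (all genes 0.22) and -0.8 without IVF mouse 4 (all genes -0.63).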

How the data were processed

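TRIzol-isolated liver RNA was sequenced on an Illumina Nova6000 system, and reads were mapped to the genome after trimming. The authors deposited FPKM values per gene. Per the submitters' processing notes the tools included FastQC 0.11.5, STAR 2.5.3a, StringTie 1.3.1c and DESeq2 1.16.1, and the build, annotation and strandedness are not given in the sources used here. FPKM depends on the other RNAs of a library, and ribosomal-type entries took 3.5% to 61.9% of it.

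From these values, 55154 of 55335 genes were matched to GENCODE vM21 (GRCm38). Depth was estimated from FPKM steps (up to 8 fragments, tolerance 2%) and covers counting error only. Each gene was tested with limma (version 3.58.1, R 4.3.3) on log2(FPKM + 1), a scale that understates changes of low genes, with 1 model of 3 groups, a trend on the mean, two-sided tests, Benjamini-Hochberg adjustment and a minimum mean of 1 FPKM. The procedure was tested on simulated data at levels well above those of the 10 genes, so its performance at their levels was not shown. Alternatives tried were a filter at 10 FPKM, no filter, a pseudocount of 0.1, median-ratio scaling, quantile normalization, scaling to nuclear protein-coding genes, only the groups compared, only NC mouse 1 as control, a replicate block, and leaving out each mouse. All 10 genes are named. From each other list the rule took up to 3 tested genes with the largest change in FET against NC and any called, and for each tested gene the 2 most alike. The text leaves out 1 gene that was named in this way. The genes and lists were chosen with earlier results of these data known.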

Additional observations from a re-analysis of the deposited data

How the results depend on the processing

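None of the 5 tested genes of the cascade was called under the alternatives that kept them, which the filter at 10 FPKM did not. Under the alternatives, 23 values of these 5 genes turned sign and 1 came to 0.0, none of which had passed the test. In FET against NC these were Insr with only NC mouse 1 (-0.07), Akt2 with median-ratio scaling (0.02), scaling to nuclear protein-coding genes (0.14) and only NC mouse 1 (0.77), and Foxo1 with median-ratio scaling (0.09), quantile normalization (0.13) and scaling to nuclear protein-coding genes (0.19). In IVF against NC they were Akt1 with the same 3 scalings (0.07, 0.02 and 0.0) and only NC mouse 1 (0.11), and Akt2 with a pseudocount of 0.1 (-0.04). In FET against IVF they were Insr with quantile normalization (0.05) and scaling to nuclear protein-coding genes (0.1). Leaving out each mouse gave -0.28 to 0.1 for Foxo1 in FET against NC, and in IVF against NC -0.6 to 0.33 for Akt1, -0.53 to 0.67 for Akt2, -0.12 to 0.73 for Foxo1 and -0.12 to 0.34 for Pik3r1. In FET against IVF it gave -0.73 to 0.35 for Insr and -0.13 to 0.79 for Akt1. For the 5 genes under the filter, 16 values turned sign, 9 of them without 1 mouse. The others were Gsk3b in FET against NC with quantile normalization (0.03) and only NC mouse 1 (0.21), and in IVF against NC Irs1 with the 3 scalings (0.09, 0.05 and 0.05) and only NC mouse 1 (0.01) and Irs2 with only NC mouse 1 (0.02). Pik3r1 kept a negative sign in FET against NC and against IVF under each of these alternatives, from -1.44 to -0.13 and from -1.74 to -0.67. The count of all genes changed in FET against NC was 16, and became 0 without the filter, 5 with the filter at 10 FPKM, 26 with median-ratio scaling and with quantile normalization, 0 with only the groups compared, 6 with only NC mouse 1, and 1 to 83 without 1 mouse. In IVF against NC it was 4, and became 0 with a pseudocount of 0.1, without the filter, with each of the 3 scalings and with only the groups compared, 2 with the filter at 10 FPKM and with only NC mouse 1, and 0 to 24 without 1 mouse. In FET against IVF it was 6, 3 of them higher, and became 0 without the filter and with only the groups compared, and 0 to 10 without 1 mouse. Its split by direction moved as well. There were 0 higher and 5 lower with a pseudocount of 0.1, and 0 higher and 10 lower without IVF mouse 2. Without FET mouse 2 there were 6 higher and 3 lower, and with the replicate block 2 higher and 0 lower. The scalings moved the median of all genes in FET against NC from -0.46 to between -0.15 and -0.06. Of the 81 other pathway genes, 1 was called in FET against NC with a pseudocount of 0.1 (Igfbp1, listed at 0 in every FET mouse), and 0 to 1 without 1 mouse (Klf15, without NC mouse 1). The cause of these shifts was not tested. With only NC mouse 1 as control, that mouse is assumed to vary like the mice of the other groups. IVF and FET mice share numbers, but same-numbered mice did not deviate together (correlations -0.13, 0.02 and -0.26), so the numbers were not taken to pair them. A replicate block left 2 genes changed in FET against IVF and 0 genes of the cascade. At its mean NC level Trib3 would have given about 1.6 to 2.33 fragments per FET library and 6.15 over all of them. The part of depth in its values of 0 was not tested.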
